A study of Mus musculus with 12 samples.

Results

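Mitochondrial protein import was followed through the genes of the machinery that carries proteins made in the cytosol into mitochondria. Members were all array probe sets whose symbol in the probe gene table begins with Timm or Tomm and a digit, or is Mtx1, Mtx2, Samm50, Pmpca, Pmpcb, Grpel1, Grpel2, Immp1l, Immp2l, Chchd4 or Gfer. There were 41 such probe sets of 35556 on the array. Of these, 40 had 1 symbol and stood for 34 of the 19938 genes tested, each gene being read from its brightest probe set. The remaining probe set carries Timm10b together with the symbol of another gene, so it was counted and not used. Immp2l was not found in the probe gene table and was not analysed here.

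Nearly all mitochondrial proteins are encoded in the nucleus and must cross the outer membrane through the TOM complex. From there, the SAM complex inserts barrel-shaped proteins into the outer membrane, small TIM chaperones escort water-shy proteins through the space between the membranes, and the TIM22 and TIM23 complexes take proteins into or across the inner membrane. A disulfide relay traps small proteins in the space between the membranes, and peptidases in the matrix and inner membrane remove targeting sequences.

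The RNA came from cultured mouse myeloid progenitors grown from c-Kit+ bone marrow cells. All donor mice were given tamoxifen and carried CreER, a Cre recombinase that tamoxifen switches on, so controls carry it too. Zfx wt/y CreER mice gave the wt groups and Zfx fl/y CreER mice, whose X-linked transcription factor gene Zfx can be cut out by Cre, gave the groups labelled ko. Cells were infected with a retrovirus carrying Myc and the marker GFP, or GFP alone, sorted for GFP after 48 hours and kept for 4 further days in medium holding 10 ng/mL of IL-3, of IL-6 and of SCF. The 4 groups, named GFP wt, GFP ko, Myc wt and Myc ko, had 3 arrays each. The labels give neither strain nor age, and do not say whether equal replicate numbers share an animal or a culture. The p-values below therefore measure the spread between these arrays.

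Array medians lay between 127 and 137 intensity units. The Myc probe set rose 1.74-fold with the Myc virus in wt and 1.87-fold in ko (limma adjusted p = 7.24e-04 and 3.42e-04). The Zfx probe set was not lower in ko: its mean was 946 ± 72.9 (SD, n = 3) in GFP wt and 1021 ± 64.9 in GFP ko, and 992 ± 26.4 in Myc wt and 1048 ± 63.2 in Myc ko. Which part of the transcript its probes cover is not given, so ko here rests on the labels. Of 10 markers of myeloid progenitors, 9 lay above the median of all probe sets in every group, and Flt3 did not. None of 6 measured lymphoid markers did, and their summed intensity stayed between 371 and 429 on the 12 arrays. All 10 neutrophil and all 8 measured monocyte and macrophage markers also lay above that median in every group. Of 11 mast cell and basophil markers 10 did in GFP wt and 5 in Myc ko, and of 7 measured erythroid markers 6 in GFP wt and 7 in the other groups. This level therefore does not set progenitors apart from other myeloid cells.

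With Myc, import genes rose in both genotypes and none fell. In wt, 16 of 34 were higher at an adjusted p under 0.05 (limma), against 6.17% of all genes tested, and 0 were lower, against 3.11%. In ko, 22 of 34 were higher, against 8.58% of all genes, and 0 were lower, against 4.59%. The rises were small, from 1.18-fold to 1.66-fold in wt and from 1.14-fold to 1.87-fold in ko, and 5 genes in each genotype rose at least 1.5-fold, as did 2.15% of all genes in wt and 2.8% in ko. The median log2 difference over the 34 genes was 0.32 in wt (0.38, 0.22 and 0.36 in the arrays numbered 1, 2 and 3) and 0.38 in ko (0.53, 0.28 and 0.37). Over all genes the medians were 0.0036 and 0.0061. The shares of all genes given here include dim genes, as no filter was set. By mean log2 intensity the import genes lay at percentile 64.2 of all genes or higher, except Timm8a2 (11.2) and Tomm20l (39.8). The share called among genes of like brightness is not given here.

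**Figure D1:**
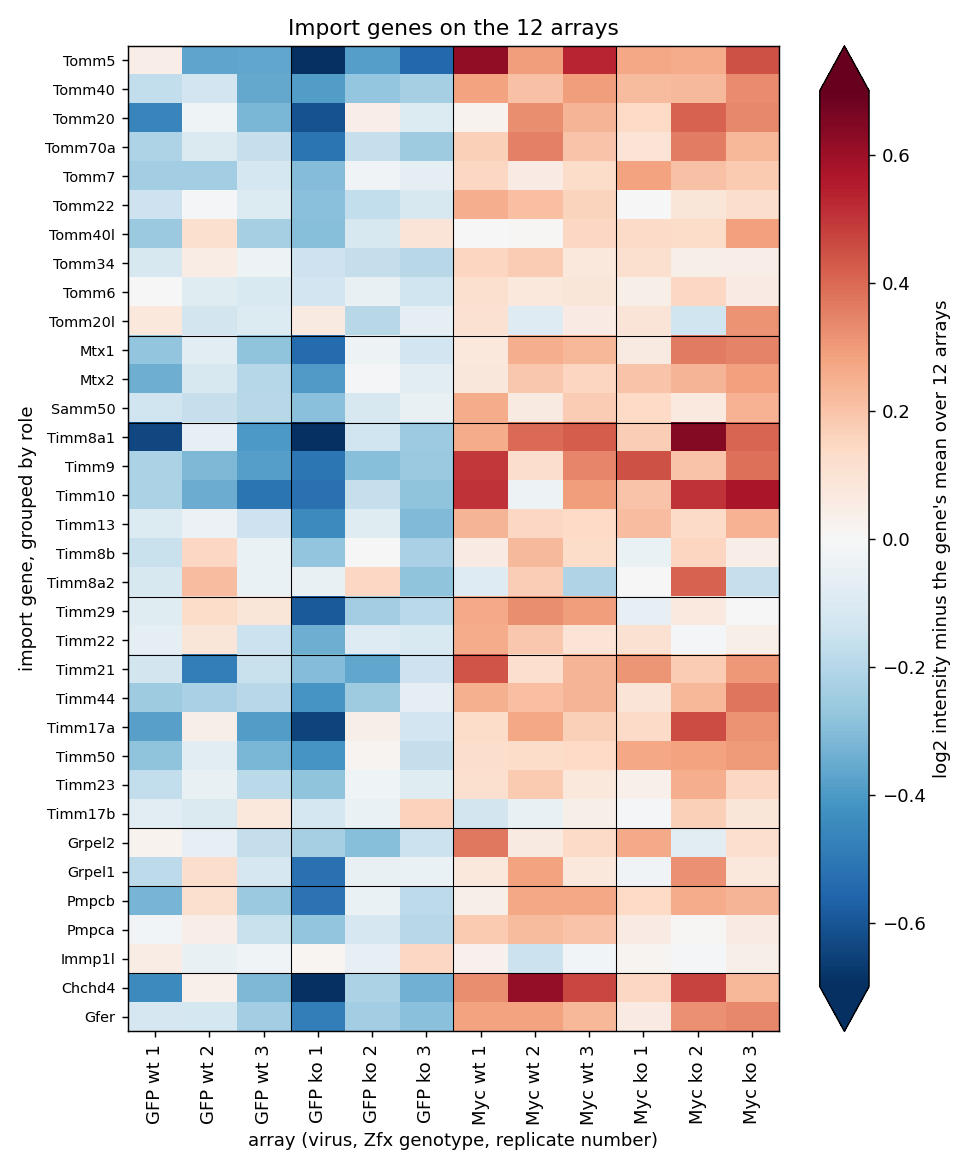
Heat map of the 34 import genes (rows, grouped by role) on the 12 arrays (columns). Colour is the log2 intensity minus the gene's own mean over the 12 arrays, and values beyond 0.7 in either direction share the end colour. The columns of the Myc virus are red for most genes and those of the GFP virus blue, and GFP ko 1 is the deepest blue column; Timm17b, Immp1l, Timm8a2 and Tomm20l show no such split.

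The arrays of the Myc and GFP groups did not overlap for 26 of the 34 genes in wt, all higher with Myc, where 15.1% of all genes separated in that direction. In ko 29 genes separated upwards, against 15.6% of all genes, and 0 import genes separated downwards in either genotype, against 9.44% and 9.88% of all genes. All 3 same-numbered pairs were higher with Myc for 30 genes in wt and 32 in ko, against 27.3% and 26.9% of all genes. With replicate number as a blocking term (number-blocking), which compares arrays within a number, 25 genes rose in wt, against 12.2% of all genes, and 28 rose in ko, against 14.5%.

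The counts depended on single arrays. In wt the count was 7 without GFP wt 1, 5 without GFP wt 3, 5 without Myc wt 1, 10 without Myc wt 2 and 6 without Myc wt 3. In the same order 6.06%, 4.2%, 5.88%, 8.02% and 4.31% of all genes passed in either direction. In ko the count was 13 without GFP ko 1, where 8.35% of all genes passed, and 11 without Myc ko 3, where 7% did. It was 8 when the spread was estimated from the ko arrays alone. The share of all genes passing in that fit is not given here, so this drop has no background beside it. In wt Tomm40, Timm9 and Timm44 were the 3 genes of 16 called without each of the 12 arrays in turn. In ko 11 of 22 were: Tomm5, Tomm7, Tomm40, Tomm70a, Timm9, Timm10, Timm13, Timm21, Timm44, Timm50 and Gfer.

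Markers of cell types moved with the virus too, and in bulk RNA fewer cells of a type and less RNA per cell cannot be told apart. Over all genes 3.11% fell in wt and 4.59% in ko with Myc, and 6.17% and 8.58% rose. Of 10 progenitor markers 2 fell in wt and 3 in ko with Myc, and their summed intensity was 79910 to 86900 in GFP wt, 72590 to 80360 in GFP ko, 70370 to 74290 in Myc wt and 60090 to 68090 in Myc ko. Of 10 neutrophil markers 7 fell in wt and 8 in ko with Myc, and their summed intensity went from between 68090 and 80180 in GFP wt to between 34550 and 47710 in Myc wt. In ko it went from between 71040 and 85290 to between 43940 and 51250. Of 11 mast cell and basophil markers 6 fell in each genotype and 1 rose in wt. Their summed intensity lay between 18940 and 25930 in GFP wt, 12040 and 17200 in GFP ko, 8517 and 20180 in Myc wt, and 4289 and 8019 in Myc ko. Of 7 measured erythroid markers 1 rose in wt and 5 in ko, and their sum was 3758 to 4698 in GFP wt, 4319 to 4980 in GFP ko, 4692 to 6301 in Myc wt and 5937 to 11150 in Myc ko. Of 8 measured monocyte and macrophage markers 1 fell in wt and 0 in ko, and their sum was 14470 to 18310 in GFP wt, 17880 to 23090 in GFP ko, 7688 to 13900 in Myc wt and 11030 to 17190 in Myc ko. Number-blocking called 1644 of 19938 genes lower in wt and 2064 in ko, and 2438 and 2895 higher. It moved the marker counts: 3 and 6 progenitor markers fell in wt and ko, and all 10 neutrophil markers in both. So did 6 and 8 mast cell and basophil markers and 2 and 3 monocyte and macrophage markers, while 3 and 7 erythroid markers rose. The part of these cells in the import results was not tested.

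**Figure D2:**
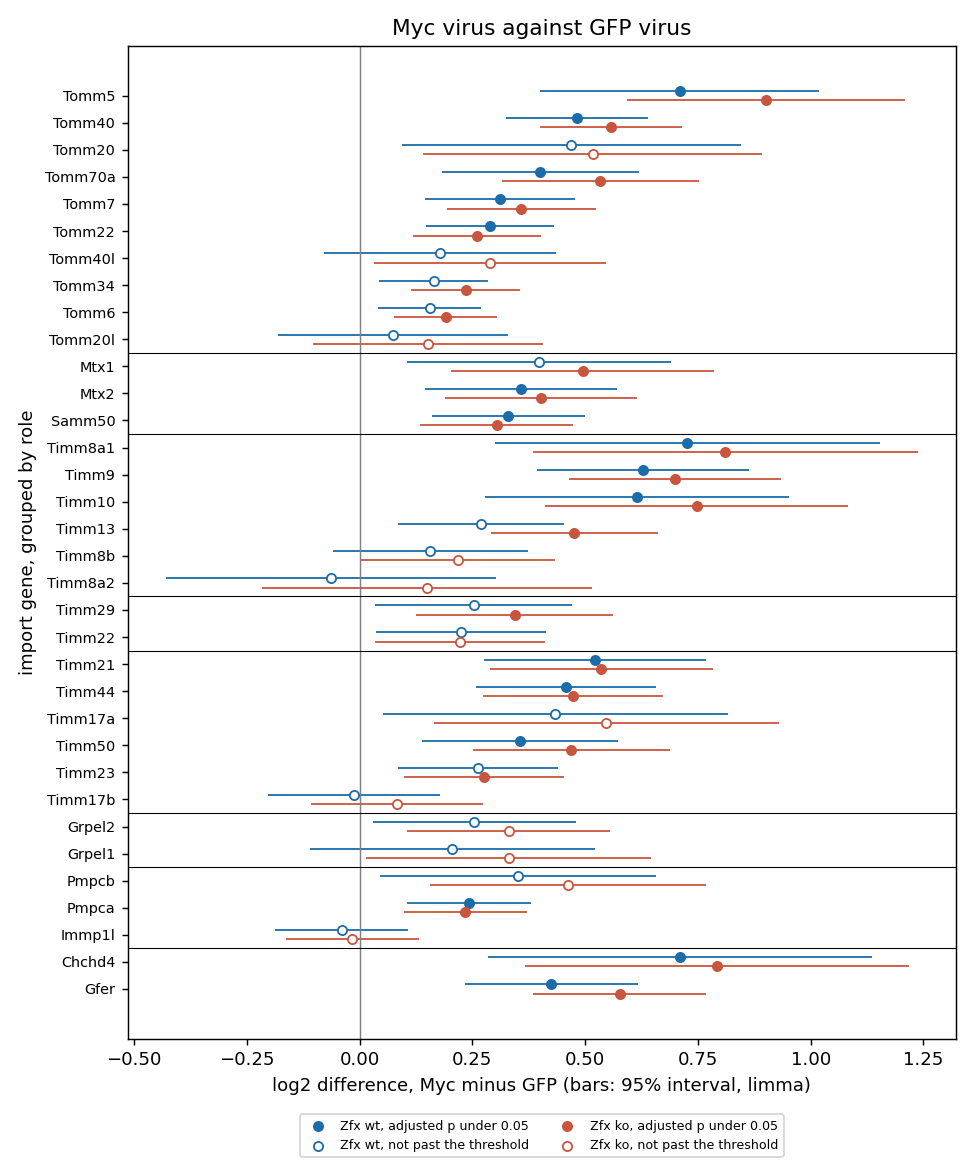
Log2 difference between the Myc and GFP virus for each import gene, in Zfx wt (blue) and Zfx ko (red), with 95% limma intervals as bars. Filled points passed an adjusted p of 0.05; every filled point lies to the right of 0, and Tomm5 in ko reaches the highest value, 0.90.

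The TOM complex is the general entry gate: Tomm40 forms the channel, Tomm20, Tomm22 and Tomm70 are receptors, and Tomm5, Tomm6 and Tomm7 are small subunits around the channel. Of 10 genes with TOM names, 5 rose in wt (Tomm5, Tomm40, Tomm70a, Tomm7 and Tomm22) and 7 in ko, where Tomm34 and Tomm6 were added. Tomm5 gave intensities of 1379, 1032 and 1039 on the GFP wt arrays 1, 2 and 3, and of 2051, 1633 and 1931 on Myc wt. In ko it gave 769, 1023 and 913 with GFP and 1610.4, 1600.2 and 1817 with Myc. The lowest Myc array of each genotype lay above the highest GFP array. The rise was 1.64-fold in wt (95% interval 1.32 to 2.02, limma adjusted p = 0.0111) and, for the ko arrays, 1.87-fold (1.51 to 2.31, limma adjusted p = 0.00293).

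Tomm40, the channel, was the import gene with the lowest p in both genotypes. Its arrays read 1185, 1214 and 1040.1 in GFP wt against 1621, 1537 and 1635 in Myc wt, and 1017, 1106 and 1136 in GFP ko against 1555, 1559 and 1677 in Myc ko. The groups stayed well apart, at 1.40-fold in wt (1.25 to 1.56, limma adjusted p = 0.00385) and, for the ko arrays, 1.47-fold (1.32 to 1.64, limma adjusted p = 0.00134). Tomm70a, the receptor also written Tomm70, which binds carrier proteins with their chaperones, read 1558, 1688 and 1620.4 in GFP wt and 2036, 2317 and 2079.8 in Myc wt. It rose 1.32-fold there and 1.45-fold in ko (limma adjusted p = 0.0292 and 0.00641). In ko the GFP arrays read 1273, 1623 and 1528, and the Myc arrays 1937, 2324 and 2128. Number 1 is the lowest Tomm70a array in both viruses of ko, and the Myc arrays still cleared all GFP arrays.

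Tomm7 read 1277, 1278 and 1388 in GFP wt and 1672, 1569.9 and 1649 in Myc wt, and in ko 1224, 1482 and 1440.3 against 1839, 1743 and 1716. It rose 1.24-fold in wt and 1.28-fold in ko (limma adjusted p = 0.0264 and 0.0111). Tomm22, the central receptor, rose 1.22-fold and 1.20-fold (limma adjusted p = 0.0185 and 0.0228). Tomm6 passed only in ko, at 1.14-fold (limma adjusted p = 0.0344; 1.11-fold and 0.0956 in wt). Tomm34, a cytosolic co-chaperone that is not a TOM subunit, also passed only in ko, at 1.18-fold (limma adjusted p = 0.0183; 1.12-fold and 0.0986 in wt). The interaction between virus and genotype was not past the threshold for either gene, at 1.03-fold for Tomm6 and 1.05-fold for Tomm34 (limma adjusted p = 1 for each).

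Tomm20, the receptor for N-terminal targeting sequences, kept an order by replicate number. Its chosen probe set read 2401, 3239 and 2651 in GFP wt and 3372, 4149.8 and 3913 in Myc wt, and in ko 2167, 3421 and 3099.7 against 3647, 4410.5 and 4190.4. Array 1 was lowest and array 2 highest in each of the 4 groups. The difference was 1.39-fold in wt and 1.43-fold in ko, with limma adjusted p of 0.127 and 0.0742, and of 0.00312 and 0.00146 under number-blocking. A second Tomm20 probe set gave 1.40-fold and 1.42-fold (limma adjusted p = 0.0479 and 0.0305 when all probe sets are tested). Tomm40l, a relative of Tomm40, was at 1.13-fold in wt and 1.22-fold in ko (limma adjusted p = 0.497 and 0.151). Tomm20l, a relative of Tomm20, was below the median of all probe sets, with 86.4 to 123 on the 12 arrays, and was at 1.05-fold and 1.11-fold (limma adjusted p = 0.873 and 0.548).

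**Figure D3:**
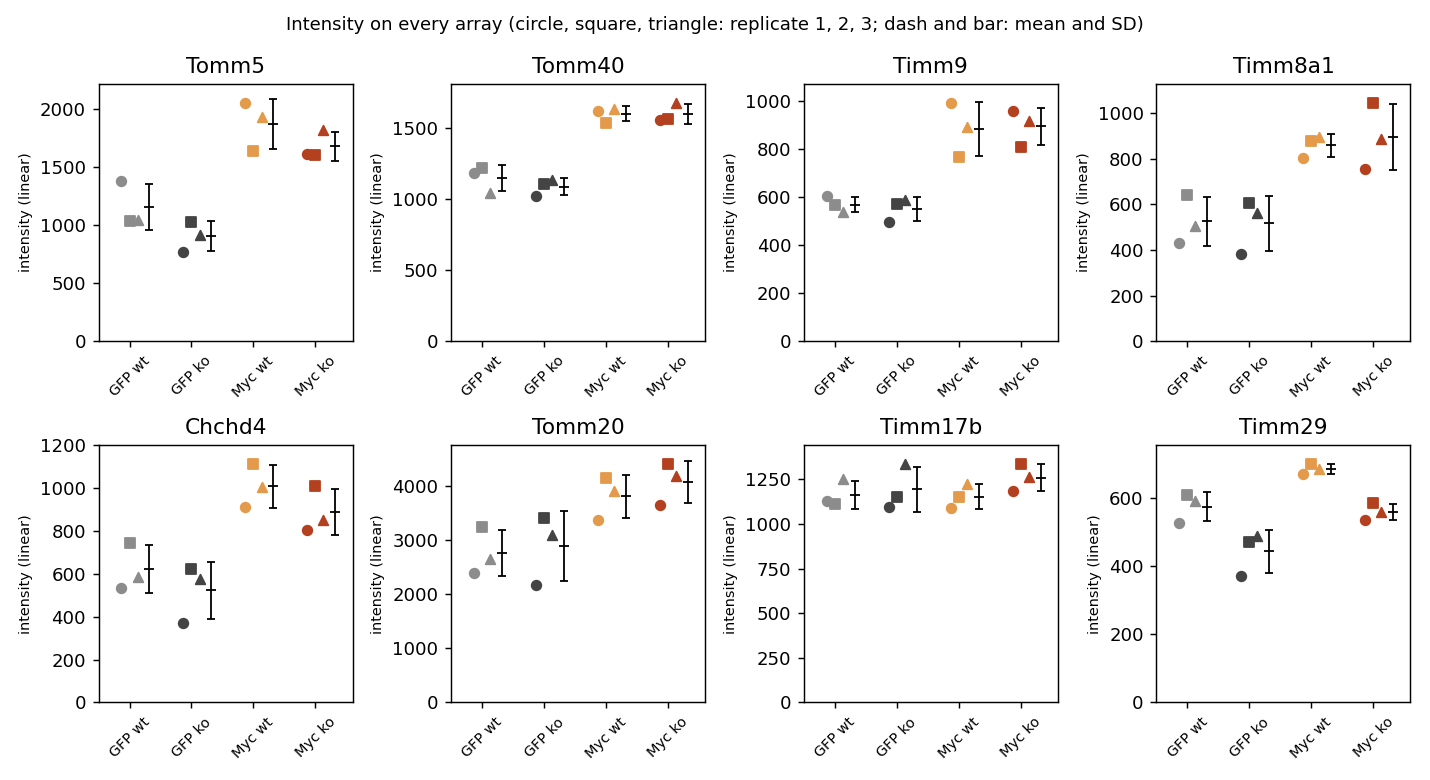
Intensity (linear scale, from 0) of 8 import genes on every array, by group. Circles, squares and triangles are replicates 1, 2 and 3, and the dash and bar beside them are the mean and SD of the 3 arrays. Tomm5, Tomm40, Timm9, Timm8a1 and Chchd4 are higher on every Myc array than on every GFP array of their genotype, Tomm20 keeps the order of its replicates in each group, Timm17b overlaps, and Timm29 is lower in ko than in wt under each virus.

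In the outer membrane, Samm50 builds barrel proteins into the membrane, and the metaxins Mtx1 and Mtx2 work with it. Samm50 and Mtx2 rose in wt, and all 3 rose in ko. Samm50 read 3361, 3311 and 3239.7 in GFP wt and 4428, 3865 and 4182 in Myc wt (1.26-fold, limma adjusted p = 0.0229). In ko it read 3024, 3422 and 3578 against 4077, 3888 and 4391 (1.23-fold, limma adjusted p = 0.0261). Samm50 separated the viruses in both genotypes. Mtx2 read 1467, 1717 and 1616 in GFP wt and 1961, 2119.5 and 2062 in Myc wt, and in ko 1414, 1839 and 1764 against 2132, 2188 and 2269.7. Mtx2 rose 1.28-fold and 1.32-fold (limma adjusted p = 0.0424 and 0.0201). Mtx1 read 1461, 1683 and 1459 in GFP wt and 1861, 2117 and 2082 in Myc wt, and in ko 1220.5, 1730.3 and 1615 against 1852, 2281 and 2256, with no overlap. It rose 1.41-fold in ko (limma adjusted p = 0.0328) and was at 1.32-fold in wt (limma adjusted p = 0.0965; 0.00527 under number-blocking).

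The small TIM chaperones held some of the largest changes. Timm9 and Timm10 pair to carry inner membrane proteins, and Timm8a1 pairs with Timm13. Of 6 genes measured, Timm8a1, Timm9 and Timm10 rose in wt and in ko, and Timm13 rose in ko. The promoters of Timm9, Timm10 and Timm8a1 are printed because they hold CACGTG, the E-box that Myc binds with its partner Max. Among risen import genes with a matched promoter, these 3 hold it. The promoter of Tomm5, the gene with the highest fold in ko, holds none and is shown beside them. Each runs from 250 bases before to 50 after the start in RefSeq (GRCm38.p6), 5′ to 3′ along the gene, with CACGTG in capitals. Timm9 lies at chr12:71136626-71136925 on the minus strand, Timm10 at chr2:84826771-84827070 on the plus strand, Timm8a1 at chrX:134541621-134541920 on the minus strand and Tomm5 at chr4:45108064-45108363 on the minus strand.
Timm9: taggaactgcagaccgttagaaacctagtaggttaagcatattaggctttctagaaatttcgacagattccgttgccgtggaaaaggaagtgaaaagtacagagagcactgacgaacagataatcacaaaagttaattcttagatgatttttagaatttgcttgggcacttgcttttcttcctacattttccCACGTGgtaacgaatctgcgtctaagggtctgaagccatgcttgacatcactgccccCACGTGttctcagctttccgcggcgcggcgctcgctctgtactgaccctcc
Timm10: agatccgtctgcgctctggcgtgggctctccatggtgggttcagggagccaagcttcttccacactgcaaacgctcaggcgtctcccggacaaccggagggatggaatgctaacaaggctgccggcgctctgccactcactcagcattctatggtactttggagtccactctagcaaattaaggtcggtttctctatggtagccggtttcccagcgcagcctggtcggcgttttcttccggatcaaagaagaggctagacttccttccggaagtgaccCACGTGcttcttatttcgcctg
Timm8a1: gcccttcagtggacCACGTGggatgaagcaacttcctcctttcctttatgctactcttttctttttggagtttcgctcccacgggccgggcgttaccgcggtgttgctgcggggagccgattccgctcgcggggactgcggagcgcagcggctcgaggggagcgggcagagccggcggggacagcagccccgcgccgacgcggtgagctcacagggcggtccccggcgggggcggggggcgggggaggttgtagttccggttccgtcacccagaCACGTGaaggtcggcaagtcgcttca
Tomm5: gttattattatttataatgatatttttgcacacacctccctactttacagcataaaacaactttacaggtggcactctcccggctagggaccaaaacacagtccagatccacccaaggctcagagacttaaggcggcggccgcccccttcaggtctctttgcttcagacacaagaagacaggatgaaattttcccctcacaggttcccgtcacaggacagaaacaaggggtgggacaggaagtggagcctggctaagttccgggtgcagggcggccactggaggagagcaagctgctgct

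Counted from the start, the first letter of CACGTG is at -58 and -1 in Timm9, at 29 in Timm10 and at -236 and 25 in Timm8a1. RefSeq promoters matched 30 of the 34 import genes, with 32 promoters in all. Timm21 and Tomm7, which rose in both genotypes, were among the genes without a match. CACGTG, which reads alike on both strands, was in 5 of these 32 (15.6%), against 7.15% of all 32851 promoters of 300 bases. Among the 21263 of these from protein-coding genes, as all import genes are, the share was 7.84%. Beside Timm9, Timm10 and Timm8a1, the import genes with CACGTG are Tomm20 and Tomm20l, whose chosen probe sets did not pass the threshold in either genotype. By gene, 3 of 20 that rose in at least 1 genotype hold it (15%), and 2 of 10 that did not (20%). This split hangs on the probe set chosen for Tomm20. Its second probe set passed in wt and ko (limma adjusted p = 0.0479 and 0.0305 when all probe sets are tested) and would move Tomm20 to the risen genes. Of the 20 probe sets nearest in number, all 20 lie on chromosome 2 for the chosen set. For the second set 11 of 20 lie on chromosome 8, where the gene is. AGGCCT, the core of the known Zfx motif and also the same on both strands, was in 6 of 32 import promoters (18.8%), against 10.3% of all promoters and 10.1% of those of protein-coding genes. The import genes with AGGCCT are Chchd4, Gfer, Immp1l, Tomm34 and Tomm70a, the last of which has it at -164 and -93. By gene AGGCCT was in 5 of 30 (16.7%), as Tomm34 has 2 overlapping promoters that both hold it. It was in 4 of 20 genes that rose in at least 1 genotype (20%) and in 1 of 10 that did not (10%). These matches describe the letters in this window and no binding was measured.

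Timm9 read 602, 564 and 538 in GFP wt and 992, 765 and 889.8 in Myc wt, a rise of 1.55-fold (1.31 to 1.82, limma adjusted p = 0.00617). Its ko arrays read 494, 571 and 587 with GFP and 957, 808 and 917 with Myc, or 1.62-fold (1.38 to 1.91, limma adjusted p = 0.00264). Number 2 has the lowest Timm9 value of the Myc arrays in both genotypes, still above every GFP array. Timm10 read 359, 329.6 and 293 in GFP wt against 594, 409 and 513 in Myc wt, and 292, 374 and 345 in GFP ko against 481, 596 and 622 in Myc ko. That was 1.53-fold in wt (limma adjusted p = 0.0298) and 1.68-fold in ko (limma adjusted p = 0.00971). Timm10 varied more between arrays than Timm9, and its viruses did not overlap either.

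Timm8a1 is on the X chromosome and its human counterpart is the deafness-dystonia gene. Timm8a1 read 429.7, 642 and 506 in GFP wt and 802, 879.5 and 896 in Myc wt (1.66-fold, 1.23 to 2.22, limma adjusted p = 0.0404). The ko arrays gave 381, 608 and 560.1 against 754, 1046 and 888 (1.75-fold, 1.31 to 2.36, limma adjusted p = 0.0198). As for Tomm20, array 1 was lowest in every group. The second Timm8a1 probe set gave 1.74-fold and 1.77-fold (limma adjusted p = 0.0445 and 0.0305 when all probe sets are tested). Its partner Timm13 read 724, 750.2 and 698 in GFP wt and 912, 855 and 851 in Myc wt, at 1.21-fold (limma adjusted p = 0.0753; 0.0462 under number-blocking). In ko Timm13 read 568, 729 and 624 against 898, 847 and 914 and rose 1.39-fold (1.22 to 1.58, limma adjusted p = 0.00500). Both Timm13 comparisons had no overlap between viruses.

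Other small TIM genes did not pass. Timm8b, which resembles Timm8a1, was at 1.11-fold in wt and 1.16-fold in ko (limma adjusted p = 0.464 and 0.201; 0.0391 and 0.00692 under number-blocking). Timm8a2 read 34 to 55.3 on the 12 arrays, below the median of all probe sets, and was at 0.957-fold and 1.11-fold (limma adjusted p = 0.937 and 0.744).

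The disulfide relay of the space between the membranes is Chchd4 (Mia40), which oxidises incoming proteins such as the small TIMs, and Gfer (Erv1 or ALR), which reoxidises Chchd4. Both rose in both genotypes. Chchd4 read 533, 746 and 584 in GFP wt and 911, 1111 and 1003 in Myc wt, a rise of 1.64-fold (1.22 to 2.20, limma adjusted p = 0.0442). In ko it read 370.3, 622 and 576 against 802, 1009.8 and 852, or 1.73-fold (1.29 to 2.33, limma adjusted p = 0.0218). Array 2 was the highest of each group for Chchd4, and array 1 the lowest. Gfer was steadier, at 433, 431 and 398 in GFP wt and 570.3, 571 and 552 in Myc wt (1.34-fold, 1.18 to 1.53, limma adjusted p = 0.0129). In ko Gfer read 336, 397 and 384 against 488, 586 and 594 (1.49-fold, 1.31 to 1.70, limma adjusted p = 0.00256).

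The TIM23 complex takes proteins with targeting sequences across the inner membrane: Timm23 and Timm17 form the channel, Timm50 is the receptor, Timm21 links the complex to TOM and to the respiratory chain, and Timm44 anchors the motor chaperone Hspa9. Of 6 genes, Timm21, Timm44 and Timm50 rose in both genotypes and Timm23 in ko. Timm21 read 827, 645 and 810.1 in GFP wt and 1226, 979.8 and 1066 in Myc wt (1.44-fold, limma adjusted p = 0.0158). For ko the values were 731, 702 and 818 against 1118, 1023 and 1117 (1.45-fold, limma adjusted p = 0.0108). Timm44 was tight within wt, at 547, 554 and 567 with GFP and 773, 752 and 766 with Myc (1.37-fold, 1.20 to 1.58, limma adjusted p = 0.0116). In ko it spread from 488, 547 and 622 to 690.4, 764 and 843 (1.39-fold, limma adjusted p = 0.00744). For Timm44 the interaction between virus and genotype was 1.01-fold (95% interval 0.831 to 1.23).

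Timm50 read 1175, 1354 and 1145 in GFP wt and 1554, 1562 and 1572 in Myc wt (1.28-fold, limma adjusted p = 0.0485). In ko it read 1074, 1446 and 1274 against 1722, 1738 and 1754 (1.38-fold, limma adjusted p = 0.0113). Its Myc arrays agree closely with each other in each genotype while its GFP arrays spread. Timm23 read 4903, 5341 and 4857 in GFP wt and 5979, 6291 and 5836 in Myc wt, and in ko 4554, 5424 and 5222 against 5672, 6609 and 6116. It rose 1.21-fold in ko (limma adjusted p = 0.0464) and was at 1.20-fold in wt (limma adjusted p = 0.0725; 0.00788 under number-blocking).

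The paralogs Timm17a and Timm17b, alternative channel subunits, are shown by array, as Tomm20 is above, though neither passed the threshold; these 3 were chosen after their values were seen. Timm17a read 1591, 2126 and 1576 in GFP wt and 2263, 2500.1 and 2320.3 in Myc wt, and in ko 1319.9, 2131 and 1888 against 2274, 2836 and 2569. That was 1.35-fold and 1.46-fold (limma adjusted p = 0.173 and 0.0640; 0.0158 and 0.00401 under number-blocking). A second Timm17a probe set gave 1.28-fold and 1.23-fold (limma adjusted p = 0.102 and 0.143 when all probe sets are tested). Timm17b, which is X-linked, read 1129, 1109.5 and 1254 in GFP wt and 1086, 1148 and 1225 in Myc wt, and in ko 1094, 1152 and 1332 against 1184, 1335 and 1260.0. Its fold was 0.991 in wt (95% interval 0.868 to 1.13) and 1.06 in ko (0.928 to 1.21), with limma adjusted p of 0.978 and 0.721. The viruses overlapped for Timm17b in both genotypes and for the brighter Timm17a probe set in neither; the difference between the paralogs was not tested.

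Grpel1 and Grpel2 exchange the nucleotide of the motor chaperone. Neither passed the threshold, with Grpel1 at 1.15-fold in wt and 1.26-fold in ko (limma adjusted p = 0.538 and 0.185) and Grpel2 at 1.19-fold and 1.26-fold (limma adjusted p = 0.173 and 0.0575). With number-blocking, Grpel2 rose in both (limma adjusted p = 0.0386 and 0.00966) and Grpel1 in ko (limma adjusted p = 0.0146). Pmpca and Pmpcb pair to form the matrix processing peptidase. Pmpca read 2067, 2159 and 1874 in GFP wt and 2374, 2436 and 2398 in Myc wt (1.18-fold, limma adjusted p = 0.0338), and 1729, 1926 and 1831 against 2173, 2103 and 2173 in ko (1.18-fold, limma adjusted p = 0.0309). Pmpca thus rose by a like amount in each genotype without overlap. Pmpcb was at 1.28-fold and 1.38-fold (limma adjusted p = 0.166 and 0.0518; 0.0138 and 0.00287 under number-blocking). Immp1l, a subunit of the inner membrane peptidase, was at 0.973-fold and 0.989-fold (limma adjusted p = 0.890 and 0.957).

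The TIM22 complex inserts carrier proteins into the inner membrane, with Timm22 as its channel and Timm29 as a subunit. Timm22 was at 1.17-fold in each genotype (limma adjusted p = 0.146 in wt and 0.127 in ko). Timm29 read 525, 608 and 590.0 in GFP wt and 668, 699 and 683 in Myc wt, at 1.19-fold (limma adjusted p = 0.162; 0.0273 under number-blocking). In ko it read 370.2, 469.5 and 488 with GFP and 534, 583 and 558 with Myc and rose 1.27-fold (1.09 to 1.48, limma adjusted p = 0.0439). All Myc arrays lay above the GFP arrays of the same genotype, while the Myc ko arrays lay within the range of GFP wt. The call in ko was lost in 9 of the 12 fits that each left out 1 array, with a limma adjusted p of 0.0989 without GFP ko 1.

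Where the probe sets of 5 import genes lie in the genome is uncertain. Probe set numbers run along chromosomes on this array: 96.8% of 21698 named probe sets lie on the chromosome shared by most of the 20 probe sets nearest in number. For 5 import genes the chosen probe set did not: Timm23 (gene on chromosome 14, neighbours on 1), Timm8a1 (X, neighbours on 10), Tomm20 (8, neighbours on 2), Tomm22 (15, neighbours on 4) and Immp1l (2, neighbours on 5). For Timm23, 2 of 4 probe sets held the same values on each array. Tomm22 and Immp1l have no other probe set here, so their values are uncertain. With only probe sets whose neighbours lie on their gene's chromosome, a choice made after seeing the data, 16 of 32 import genes rose in wt and 22 of 32 in ko. Tomm22, called in both genotypes above, is not among the 32, so these are not the same 16 and 22 genes as above. The share of all genes that rose in this refit is not given here. In the planned fit, which reads some genes from other probe sets, it was 6.17% in wt and 8.58% in ko.

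All 16 genes called in wt were among the 22 called in ko (100% of the first list, 72.7% of the second). The comparisons share no arrays, but they share 1 estimate of the spread and their replicate numbers. Timm13, Tomm34, Mtx1, Tomm6, Timm29 and Timm23 passed only in ko. A difference in the Myc effect between genotypes was not shown for any import gene: by the interaction 0 of 34 passed (0% of all genes), with 0 at an unadjusted p under 0.05, against 1.72% of all genes. Under number-blocking 0 of 34 passed, against 0.00502% of all genes. The log2 difference was larger in ko than in wt for 30 of 34 genes, against 51.4% of all genes. The median interaction was 0.077 over the import genes, and 0.16, 0.064 and -0.025 in numbers 1, 2 and 3. Without GFP ko 1 that median was -0.0046. Over all genes the median interaction was 0.0031. The 5 genes with the lowest interaction p were Timm13 at 1.15-fold, Gfer at 1.11-fold, Tomm5 at 1.14-fold, Tomm70a at 1.10-fold and Timm8a2 at 1.16-fold, each at a limma adjusted p of 1. The 95% interval of the interaction was narrowest for Tomm6, at 0.916-fold to 1.15-fold, and widest for Timm8a1, at 0.698-fold to 1.61-fold. It lay within 1.5-fold in either direction for 28 of 34 genes, and reached beyond for Chchd4, Timm10, Timm17a, Timm8a1, Timm8a2 and Tomm5.

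No import gene passed the threshold between the Zfx genotypes. With the GFP virus 0 of 34 passed the limma threshold, against 4.11% of all genes, with 4 at an unadjusted p under 0.05, against 14.6% of all genes, and 1 called under number-blocking. With the Myc virus 0 of 34 passed, against 5.46% of all genes, with 2 at an unadjusted p under 0.05, against 15.8% of all genes, and 1 called under number-blocking. Neither unadjusted count was above its background share. That 1 gene was lower in ko, as were 7.12% of all genes with GFP and 8.03% with Myc under number-blocking. The median log2 difference was -0.046 with GFP and 0.0091 with Myc. With GFP it was -0.18, -0.049 and 0.064 in numbers 1, 2 and 3, and 0.0075 without GFP ko 1, so its sign rested on 1 array. That array had the lowest median over the import genes, at a log2 intensity of 9.80, while the other 11 lay between 9.99 and 10.4.

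**Figure D4:**
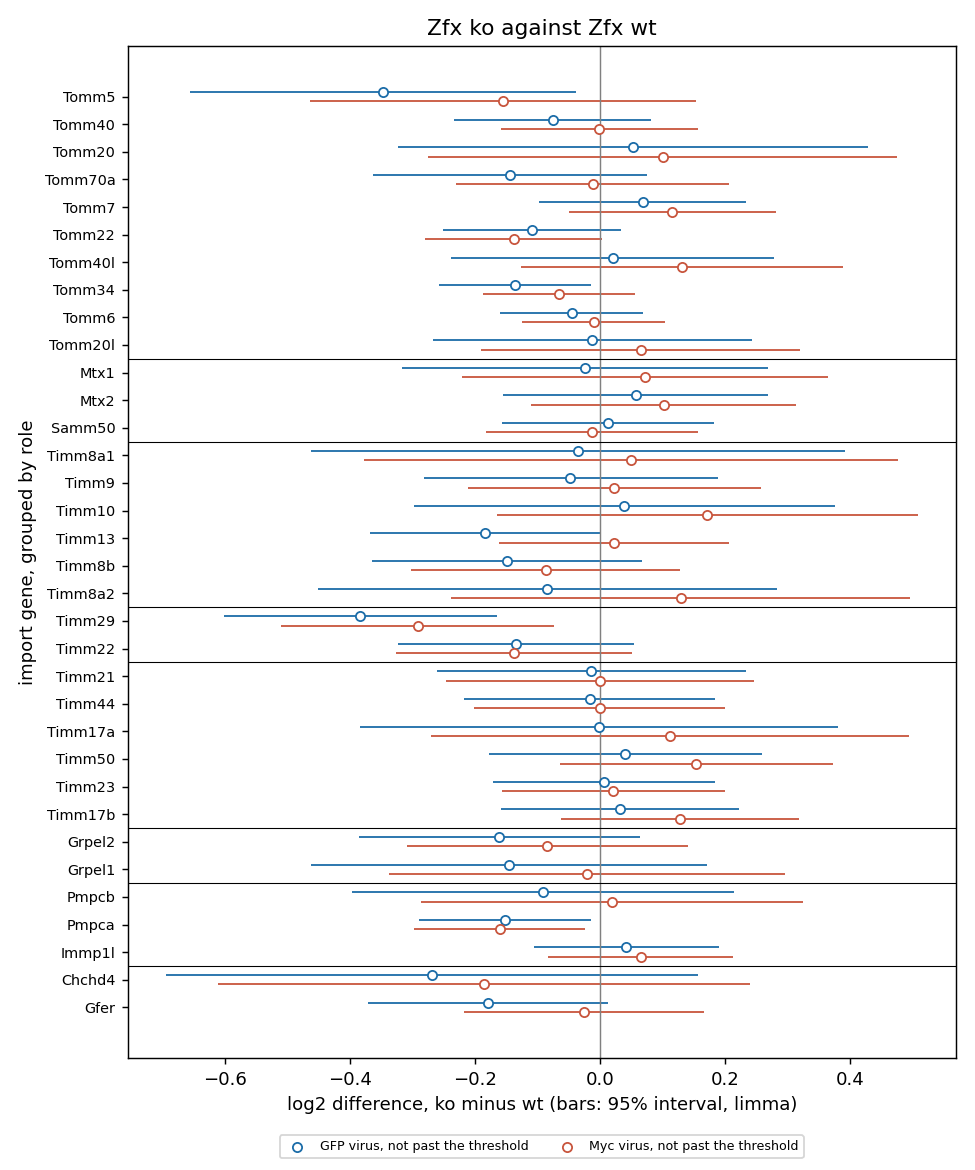
Log2 difference between Zfx ko and wt for each import gene, with the GFP virus (blue) and the Myc virus (red), with 95% limma intervals as bars. All points are open, since none passed an adjusted p of 0.05, and Timm29 has the lowest value under each virus, -0.38 with GFP and -0.29 with Myc.

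Timm29 had the lowest p of the import genes in both Zfx comparisons and was the 1 gene called under number-blocking in each. Its values, given above, were lower in ko than in wt on all arrays under each virus. It was 1.30-fold lower with GFP (95% interval 1.12 to 1.52, limma adjusted p = 0.0615; 0.00623 under number-blocking). With Myc it was 1.22-fold lower (1.05 to 1.42, limma adjusted p = 0.141; 0.0197 under number-blocking). Without GFP ko 1 the limma adjusted p was 0.102 with GFP and 0.0303 with Myc. Its comparisons share arrays with the Myc comparisons above, so the low GFP ko level also enters the rise in ko.

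The next genes by p in GFP were Tomm5, Tomm34, Pmpca and Timm13, at 0.786-fold, 0.910-fold, 0.900-fold and 0.880-fold (limma adjusted p = 0.259, 0.260, 0.267 and 0.344). Of Tomm5's same-numbered differences, -0.84 came from number 1, with -0.013 and -0.19 in numbers 2 and 3. With Myc they were Pmpca, Tomm22, Timm22 and Timm50, at 0.895-fold, 0.909-fold, 0.909-fold and 1.11-fold (limma adjusted p = 0.210, 0.337, 0.559 and 0.578). Arrays of the genotypes did not overlap for 4 genes with GFP, all lower in ko, where 10.5% of all genes separated downwards and 7.44% upwards. With Myc 3 genes separated upwards and 3 downwards, against 8.4% and 11.1% of all genes. The 95% interval lay within 1.5-fold in either direction for 31 of 34 genes with GFP, all but Chchd4, Timm29 and Tomm5, and for 33 with Myc, all but Chchd4. The interval of Chchd4 reached down to 0.618-fold with GFP and 0.655-fold with Myc. Some markers differed between genotypes as well. Of all 19938 genes, 586 fell and 233 rose with GFP, and 742 fell and 347 rose with Myc. With GFP 2 of 11 mast cell and basophil markers fell and 1 of 10 neutrophil markers rose. With Myc 3 mast cell and basophil markers and 1 progenitor marker fell while 4 of 7 erythroid markers and 1 neutrophil marker rose. Number-blocking called 1420 of 19938 genes lower and 1020 higher with GFP, and 1601 lower and 1207 higher with Myc. Among the markers, with GFP 5 mast cell and basophil, 1 progenitor and 1 monocyte and macrophage marker fell under it. In the same fit 2 neutrophil, 2 monocyte and macrophage and 1 erythroid marker rose. With Myc 4 mast cell and basophil and 3 progenitor markers fell, and 6 erythroid, 3 neutrophil and 2 monocyte and macrophage markers rose. The part of these cells in the Zfx values was not tested.

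Genes that work beside the import machinery also rose with Myc. A list of 35 such genes, of which 33 were measured, held the motor chaperone Hspa9 and its helpers, further peptidases, the inner membrane scaffold, prohibitins and folding chaperones. Of the 33, 13 rose in wt and 18 in ko, against 6.17% and 8.58% of all genes, and 0 fell. Under number-blocking 20 rose in wt and 23 in ko, against 12.2% and 14.5%. The median log2 difference was 0.28 and 0.32. Hspa9 rose 1.37-fold and 1.43-fold (limma adjusted p = 0.0132 and 0.00597). Dnajc11, a J protein at the contact of the membranes, rose 1.49-fold and 1.64-fold (limma adjusted p = 0.00898 and 0.00251). Hspd1, the folding chamber Hsp60, rose 1.41-fold and 1.61-fold (limma adjusted p = 0.0101 and 0.00179). The matrix protease subunit gene Clpp rose 1.43-fold and 1.51-fold (limma adjusted p = 0.00532 and 0.00191). The check of probe set numbers against chromosomes is given for import genes only. Whether the probe sets of this list, Hspd1 and Pam16 among them, lie at their genes is therefore uncertain.

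In the Zfx comparisons 4.11% of all genes passed in either direction with GFP and 5.46% with Myc. Of the 33 measured genes of this list, 1 passed under each virus without number-blocking. With GFP it was Vdac1, the pore of the outer membrane, which fell 1.29-fold, from 5303 ± 354 to 4114 ± 233 (SD, n = 3; limma adjusted p = 0.0155). With Myc it was Spg7, a subunit of an inner membrane protease, which fell 1.28-fold, from 338 ± 24.2 to 265 ± 24.4 (SD, n = 3; limma adjusted p = 0.0355). In the other virus Vdac1 was at 0.893-fold and Spg7 at 0.862-fold (limma adjusted p = 0.274 and 0.241). Under number-blocking 3 genes of the list fell and 1 rose with GFP (Vdac1, Spg7 and Oxa1l lower, Apool higher). With Myc 2 fell and 1 rose (Spg7 and Oxa1l lower, Pam16 higher). Of all 19938 genes, 1420 fell and 1020 rose with GFP in that fit, and 1601 fell and 1207 rose with Myc.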

How the data were processed

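Intensities of 35556 probe sets on 12 arrays were deposited by the authors. RMA, which corrects background, quantile-normalizes arrays and summarises probes, made them per the submitters' processing notes, with no software version given. The values proved linear and log2 was taken, with no pseudocount and no filter on dim probe sets. Probe sets with 1 symbol (21789) were reduced to the brightest per gene, which left 19938 genes.

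The fit used limma 3.58.1 under R 4.3.3 (lmFit, then eBayes, with 1 mean per group, 12 arrays, 8 residual degrees of freedom), with Benjamini-Hochberg adjustment over all genes at 0.05. It was also run on simulated data with independent noise on each array. That noise lacks the correlation within replicate numbers described below, so the run does not cover it. Named genes were those past the threshold in a contrast, otherwise the 5 lowest p, and the remaining members by level or fold. The members and lists were chosen with earlier results of these data known. Replicate numbers come from the titles. After group means were subtracted, arrays sharing a number correlated at 0.40 to 0.85 over 18 pairs, so the numbers pair the arrays and a fit blocked by number (number-blocking) is given where it changes a call.

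The alternatives were the block, a second quantile normalization, centring on array medians, a trended robust prior, a fit of just the groups compared, genes brighter than the median probe set, all probe sets, each array left out, and, added after seeing the data, probe sets whose number-neighbours lie on the gene's chromosome. The number of arrays limits the precision.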

Additional observations from a re-analysis of the deposited data

How the results depend on the processing

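The counts of import genes past the threshold depended on the pairing, on which groups share the spread and on single arrays. With Myc in wt, 16 became 25 with the replicate block and 5 to 21 when each array was left out. Over all genes 4.2% passed without GFP wt 3 (count 5) and 10.3% without GFP ko 1 (count 21). In ko, 22 became 8 with only the groups compared, which leaves fewer arrays to estimate the spread. The share of all genes passing in that fit is not given here. The ko count became 11 to 25 when each array was left out. Over all genes 7% passed without Myc ko 3 (count 11) and 12.2% without GFP ko 2 (count 25). For Zfx ko against wt with GFP, 0 became 1 with the block and 1 with a second quantile normalization (Timm29, limma adjusted p = 0.0285), and stayed 0 without each array. With the Myc virus it was 1 with the block and 0 to 1 without each array. The block changed 17 calls of single import genes, all towards a call. Medians of the import genes without each array lay between 0.29 and 0.33 (Myc in wt), 0.30 and 0.44 (Myc in ko), -0.12 and 0.0075 (Zfx, GFP), 0.00099 and 0.055 (Zfx, Myc), and -0.0046 and 0.12 (interaction). No other setting moved a count by over 1.5 times. Signs turned, without single arrays, for Timm8a2, Timm17b and Immp1l, none of them called: log2 differences ran from -0.17 to 0.034 (Timm8a2), -0.058 to 0.041 (Timm17b) and -0.079 to 0.012 (Immp1l) in wt, with 0.019 for Timm8a2 and 0.029 for Timm17b without another array, and from -0.0149 to 0.27 (Timm8a2) and -0.063 to 0.040 (Immp1l) in ko.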
